A study of Mus musculus with 11 samples.

Results

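These data compare T cells cultured with dendritic cells from liver against T cells cultured with dendritic cells from PLN, the organ label used in the series. The comparison uses 6 of the 11 arrays of the series: 3 liver arrays and 3 PLN arrays, chosen by their titles and numbered 2, 3 and 4 in both groups. In every culture the T cells were from B10.BR mice, the dendritic cells from C57BL/6 mice, and the stimulation lasted 4 days. B10.BR and C57BL/6 mice carry different MHC alleles, which makes this an alloresponse, and neither organ group is an untreated control. The labels name no genetic change and no added agent, do not spell out PLN or MLN, give no age, and do not say whether cells were pooled or how far dendritic cells were removed before RNA was taken. Another 3 arrays of MLN cultures and 2 of spleen cultures entered the fit, where they helped to estimate the spread and the effect of the replicate number.

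Dendritic cells take up antigen in tissues, migrate to lymph nodes and activate T cells. Besides antigen, they deliver co-stimulation and cytokines, and these set which cytokines, homing receptors and effector genes the T cells express. An activated T cell also switches its metabolism: it takes up more glucose, and the transcription factor HIF-1, whose regulated subunit is Hif1a, turns on glycolytic enzymes and glucose transporters. The comparison asks how the organ of origin of the dendritic cells changed the T cell transcriptome at the end of the culture.

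Values are log2(intensity + 16) after quantile normalization, with 1 probe set per gene, and a difference is liver minus PLN between arrays of the same number, averaged over the 3 numbers. A difference of 1 is a doubling of intensity + 16, which understates the change of dim genes. Of 12393 genes measured, the 7436 in the upper 60% by mean level were tested. Median intensities of the 11 arrays ran from 144.3 to 170.4, and 3' to 5' actin ratios from 1.08 to 1.15. Whether the arrays of 1 organ stand for separate cultures or mice is not stated in the labels, and the p-values therefore cover the spread among arrays only, part of which may be technical. RNA was taken in bulk, so fewer cells of a type and less RNA per cell cannot be told apart.

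At an adjusted p under 0.05 (limma with the replicate number as a block), 111 of 7436 genes were called: 81 lower in liver cultures, which is 1.09% of the genes tested, and 30 higher, which is 0.403%. The lower genes had the larger differences. Their median size was 0.62, and 17 of them differed by 1 or more. The higher genes had a median size of 0.53, and 0 of them differed by 1 or more. All 111 had the same sign at the 3 numbers, a pattern that 16.6% (lower) and 19.3% (higher) of all tested genes also had. In 33 of the 81 lower genes every liver array lay below every PLN array, against 3.73% of tested genes. Of the 30 higher genes, 17 had every liver array above every PLN array, against 4.48%. Across all tested genes the median difference was 0.01, and 53.4% had differences above 0.

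The count of calls rested on the model and on single arrays. The differences themselves are the same by construction when only the block or the variance trend is changed. The same holds when MLN or spleen arrays are left out, so those fits do not test the directions. Without the replicate block, limma called 0 genes. At an unadjusted p under 0.05 it passed 275, or 3.7% of the genes tested, against 1170 with the block. A share of 0.05 is expected to pass where no gene differs, so the fit without the block showed no excess. Without a trend in the variance limma also called 0 (1099 at an unadjusted p under 0.05). With the number as a random block it called 4 genes (Tgm2, Gcnt2, Eef1a2 and Hk2), on the liver and PLN arrays alone with the block 6, and without the filter on dim genes 5. The count was 2 without liver 2, 2 without PLN 2, 1 without PLN 4, 14 without liver 4, 68 without MLN 2 and 237 without liver 3. The differences at number 3 were the smallest: their SD over tested genes was 0.23, against 0.34 at number 2 and 0.33 at number 4. All 111 genes kept their direction with each of the 11 arrays left out in turn. For MLN and spleen arrays this was fixed in advance, and the 111 genes were picked from these same data. Il17a was the only gene called in each of those 11 fits. Of the 111 calls, 109 were lost without liver 2, 109 without PLN 2, 110 without PLN 4 and 98 without liver 4.

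**Figure D1:**
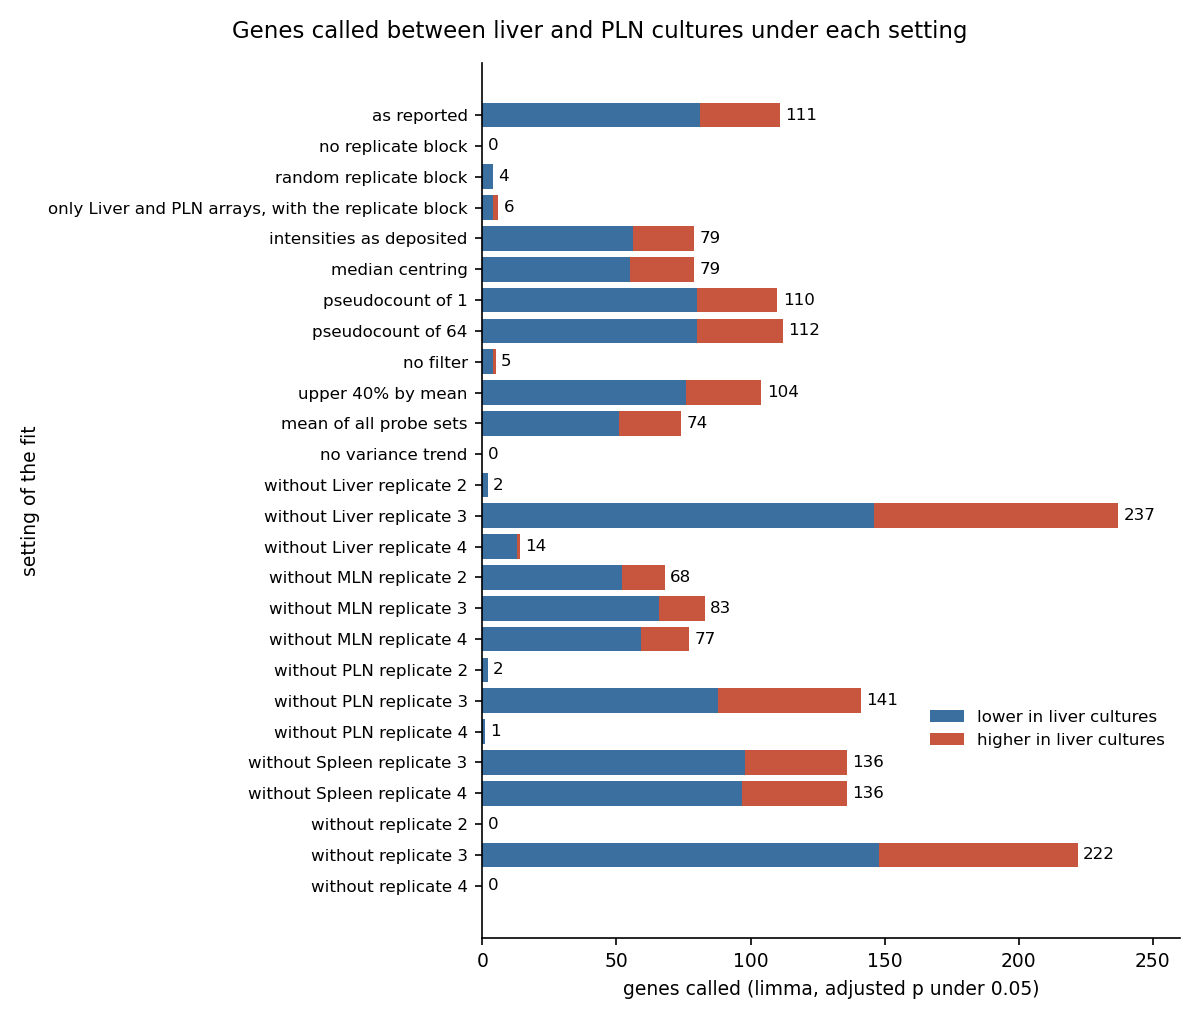
Number of genes called between liver and PLN cultures (x axis, limma, adjusted p under 0.05) under each setting of the fit (y axis), split into genes lower and higher in liver cultures. The count is 111 as reported, 0 without the replicate block or the variance trend, and runs from 1 to 237 when a single array is left out.

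Some genes of glycolysis and the hypoxia response were lower in liver cultures. Of 24 tested genes of this list, 9 were called lower and 0 higher, 23 had differences below 0, and 17 were lower at all 3 numbers. Over all tested genes, 1.09% were called lower, 3462 of 7436 had differences below 0, and 16.6% were lower at all 3 numbers. The median difference of the list was -0.24, against 0.01 over all genes tested. The called genes were Egln3, Ero1a, Hk2, Slc2a1, Slc2a3, Ddit4, Pfkp, Bnip3 and Hif1a. Of these, Slc2a1, Ddit4, Pfkp, Bnip3 and Hif1a were chosen after their values were seen. HIF-1 is known to bind a short core motif, and stretches of promoters of 4 of these genes are printed to show where that core stands: Egln3 has the largest difference of the list, Hk2 (shown with 1 of its 2 matches) and Slc2a1 act at the entry of glucose into glycolysis, and Bnip3 has the most matches. They are taken from RefSeq (GRCm38.p6), read 5′ to 3′ on the strand of the gene and upstream of the annotated start. Capitals mark matches to ACGTG or GCGTG on either strand, so that CACGT and CACGC are the same letters on the opposite strand and CACGTG holds 2 overlapping matches. The stretches lie at chr12:54204059-54204118 (minus strand, Egln3), chr6:82774576-82774695 (minus, Hk2), chr4:119108669-119108728 (plus, Slc2a1) and chr7:138909522-138909638 (minus, Bnip3).
Egln3: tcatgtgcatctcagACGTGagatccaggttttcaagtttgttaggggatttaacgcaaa
Hk2: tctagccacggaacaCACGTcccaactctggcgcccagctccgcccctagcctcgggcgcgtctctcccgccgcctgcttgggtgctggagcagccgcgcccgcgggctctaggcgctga
Slc2a1: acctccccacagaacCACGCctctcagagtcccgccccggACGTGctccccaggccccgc
Bnip3: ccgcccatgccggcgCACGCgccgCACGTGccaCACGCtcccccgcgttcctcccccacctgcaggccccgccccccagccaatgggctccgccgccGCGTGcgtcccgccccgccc

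In the 250 bases before the start, the core was common in these genes and also in others. Of the 9 called genes 8 had a promoter window in the table used, and all 8 windows held ACGTG or GCGTG, 7 of them ACGTG (87.5%). Over the 23 genes of the whole list with a window, 95.7% held either core and 73.9% held ACGTG. Among all tested genes with a window these shares were 64% and 26.4%. The 62 genes called lower with a window held either core in 74.2% and ACGTG in 43.5%, and the 25 called higher in 44% and 20%. Over all 27025 genes with a window in the table, 41.5% held either core and 18.5% held ACGTG. A gene was counted if any of its windows held a match. A match is a description of letters and not a bound site. The list was put together from known genes of glycolysis and the hypoxia response. A high share of the core in it can follow from that choice, whether or not the genes differed between organs. The part of HIF-1 in the differences was not tested.

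The oxygen sensor Egln3, a prolyl hydroxylase that marks HIF subunits for degradation, had the largest difference of the list. Its log2 levels were 10.97, 10.63 and 11.50 in liver cultures 2, 3 and 4, and 11.67, 11.29 and 12.31 in the PLN cultures of the same numbers. The groups overlapped because levels moved with the number, yet each liver array lay below its PLN partner by 0.66 to 0.81. The difference was -0.72 ± 0.08 (SE), a 1.65-fold lower level on this scale (adjusted p = 0.00416). A second probe set of Egln3 gave the same value. Without liver 2 or PLN 4 its adjusted p was 0.0520 or 0.0676. In the other 9 fits that left out an array it was called.

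Glucose uptake and the first steps of glycolysis were represented by 4 called genes. Hk2, the inducible hexokinase that traps glucose in the cell, had levels of 10.63, 11.02 and 10.91 in liver cultures and 11.33, 11.40 and 11.46 in PLN cultures. The groups did not overlap, and the PLN arrays lay close together (difference -0.54 ± 0.08, adjusted p = 0.0173). Slc2a3, a high-affinity glucose transporter, read 12.55, 11.80 and 13.12 against 13.16, 12.42 and 13.42 (difference -0.51 ± 0.08, adjusted p = 0.0245). Slc2a1, the transporter GLUT1, read 10.99, 10.83 and 11.56 against 11.90, 11.02 and 12.08 (difference -0.54 ± 0.12, adjusted p = 0.0406). For both transporters the groups overlapped, number 3 was the lowest culture of each organ, and the gap of Slc2a1 at number 3 was only -0.19. Pfkp, an isoform of phosphofructokinase, read 12.26, 12.13 and 12.32 against 12.71, 12.33 and 12.68 (difference -0.33 ± 0.06, adjusted p = 0.0261), with every liver array below every PLN array by a narrow margin.

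Among the called genes of the list, Ero1a, an oxidase of protein folding in the endoplasmic reticulum, had the next largest difference after Egln3. Its levels were 12.05, 11.72 and 12.35 in liver cultures and 13.11, 12.04 and 13.07 in PLN cultures (difference -0.70 ± 0.11, adjusted p = 0.0173). Numbers 2 and 4 carried most of that gap. Ddit4, an inhibitor of mTORC1 signalling, differed by -0.36 ± 0.08 (adjusted p = 0.0470), and Bnip3, a mitophagy receptor, by -0.32 ± 0.07 (adjusted p = 0.0391). Hif1a itself read 12.26, 12.47 and 11.89 against 12.62, 12.67 and 12.22, a difference of -0.30 ± 0.06 (adjusted p = 0.0332) with the same sign at each number. Hilpda, Ndrg1 and Mxi1, which are also known to respond to hypoxia and were not on the list, were called lower by -1.15 ± 0.21, -0.70 ± 0.11 and -0.47 ± 0.09. The angiogenic factor Vegfa, at -0.51 ± 0.13, missed the threshold (adjusted p = 0.0714). Ndrg1, Mxi1 and Vegfa were chosen after their values were seen.

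Aldoa, Tpi1, Pgk1, Pgam1, Pkm and Ldha, enzymes that act after phosphofructokinase, did not pass the test. At an unadjusted p under 0.05 (limma), 16 of the 24 tested list genes were lower and 0 higher. Over all 7436 tested genes these counts were 582 and 588. Ldha, lactate dehydrogenase A, read 13.62, 13.71 and 13.76 in liver cultures and 13.66, 13.78 and 13.71 in PLN cultures (difference -0.02 ± 0.04, adjusted p = 0.878). It was near the top of the intensity scale in all 6 cultures, and was chosen after its values were seen. The 9 calls of the list fell to 0 without liver 2, 0 without PLN 4, 1 without PLN 2 and 3 without liver 4, and to 3 on the intensities as deposited and 3 with median centring. They fell to 1 with a random replicate block, 1 on the liver and PLN arrays alone with the block and 1 without the filter. The list's median difference was -0.24 or -0.25 under both of those scalings, and its medians at numbers 2, 3 and 4 were -0.36, -0.19 and -0.22.

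**Figure D2:**
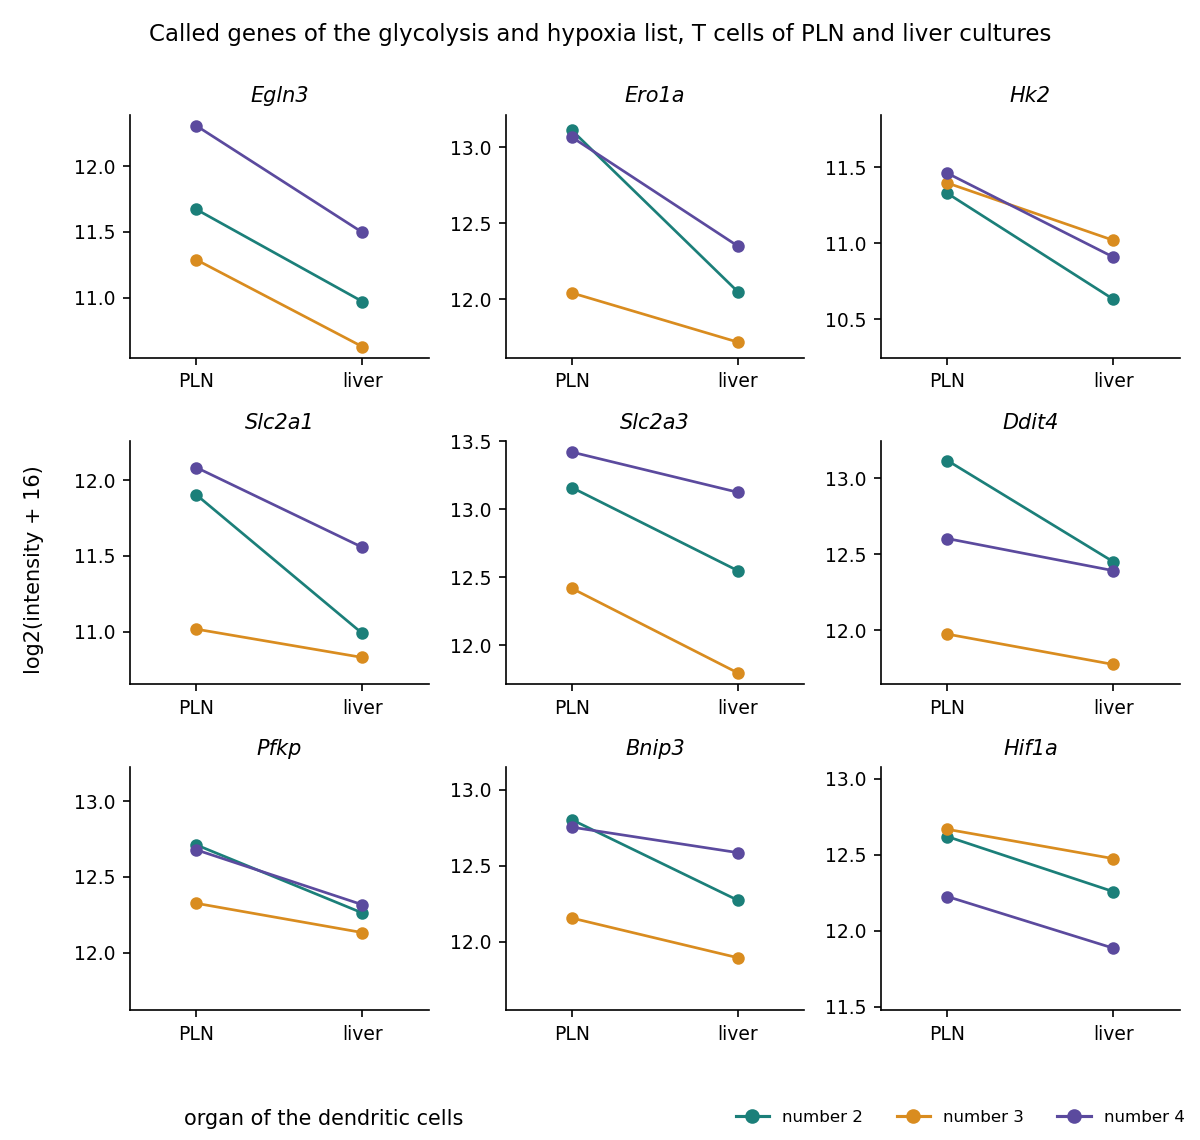
Levels (y axes, log2(intensity + 16)) of the 9 called genes of the glycolysis and hypoxia list in PLN and liver cultures (x axes); points are single arrays and lines join arrays of the same number. Every line falls from PLN to liver, while the levels of number 3 lie apart from the others in several genes, such as Slc2a1 at 10.83 and 11.02.

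Cytokine genes of the type 17 and type 2 lists were among the genes called lower. Il17a, the signature cytokine of type 17 T cells, was lower in liver cultures: 8.67, 10.19 and 8.43 against 10.07, 11.23 and 9.83 in PLN cultures. Levels were highest at number 3 in both organs, so the groups overlapped, but the liver array of each pair lay below its partner, by -1.40, -1.03 and -1.39 at numbers 2, 3 and 4. The difference was -1.28 ± 0.13, 2.42-fold on this scale (adjusted p = 0.0025), and the highest adjusted p with any single array left out was 0.0397. With a random replicate block its adjusted p was 0.0752 (limma). Il17a was also not called without the block, without the variance trend, or with all arrays of number 2 or number 4 left out. Of 6 tested genes of the type 17 list, 1 was called, and the list's median was -0.20. The transcription factor Ahr, at -0.59 ± 0.16, was the next (adjusted p = 0.0870). A second probe set of Ahr at a tested level gave -0.05 (limma, unadjusted p = 0.828).

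Of the 12 tested genes of the type 2 list, 5 were called lower and 0 higher: Il24, Il10, Ecm1, Nfil3 and Il4ra. The median difference of the list was -0.63, the lowest median among the 32 lists of gene function. Il24, a cytokine of the IL-10 family, read 7.79, 11.01 and 7.93 in liver cultures and 10.65, 11.83 and 10.15 in PLN cultures (difference -1.97 ± 0.35, adjusted p = 0.0279). Liver 3 stood above PLN 2, so the groups overlapped, and the gap was -0.82 at number 3 against -2.86 and -2.22 at numbers 2 and 4. Il10, a suppressive cytokine made by several T cell types, read 7.82, 9.46 and 8.17 against 8.67, 9.80 and 10.14 (difference -1.05 ± 0.23, adjusted p = 0.0451). Its largest gap, -1.98, was at number 4.

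The other called genes of the type 2 list had groups that did not overlap. Ecm1, a secreted matrix protein expressed by type 2 T cells, read 8.21, 9.13 and 8.46 against 9.39, 9.63 and 10.12 (difference -1.11 ± 0.23, adjusted p = 0.0362). Nfil3, a transcription factor that regulates cytokine genes, differed by -0.99 ± 0.17 (adjusted p = 0.0252). Il4ra, a chain of the receptors for IL-4 and IL-13, read 9.05, 9.43 and 9.26 against 9.86, 9.84 and 9.70 (difference -0.55 ± 0.11, adjusted p = 0.0353). A second probe set of Il4ra at a tested level gave -0.46 (unadjusted p = 0.0160), and a dim one below the tested level gave 0.59 (unadjusted p = 0.110).

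The defining genes of type 2 T cells did not pass the test. Il13 read 5.48, 8.87 and 7.97 against 7.61, 9.96 and 8.37 (difference -1.21 ± 0.30, adjusted p = 0.0666), and the chemokine receptor Ccr4 7.25, 7.95 and 7.35 against 8.27, 8.31 and 8.11 (difference -0.71 ± 0.16, adjusted p = 0.0546). Gata3, the lineage transcription factor, differed by -0.07 ± 0.18 (adjusted p = 0.906), with signs that disagreed between numbers. Il4 and Il5 lay below the tested level, with differences of -0.74 and -1.23 that were negative at each number. The 5 calls of the list became 0 without liver 2, liver 4, PLN 2 or PLN 4, 3 without MLN 2 or MLN 3 and 2 without MLN 4, and 2 when all probe sets of a gene were averaged. They also became 0 with a random replicate block, 0 on the liver and PLN arrays alone with the block and 0 without the filter.

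Tnfrsf18, Tnfrsf4 and Il2ra, receptors of the TNF and IL-2 families carried by activated and regulatory T cells, were lower in liver cultures. Of 14 tested genes of the regulatory T cell list, 4 were called lower (Tnfrsf18, Tnfrsf4, Il2ra and Ikzf4) and 0 higher, with a median of -0.26. Tnfrsf18, the co-stimulatory receptor GITR, read 12.21, 12.48 and 11.79 in liver cultures and 13.02, 12.89 and 12.26 in PLN cultures (difference -0.57 ± 0.08, adjusted p = 0.0173). Tnfrsf4, the receptor OX40, read 11.46, 11.87 and 11.13 against 12.43, 12.25 and 11.54 (difference -0.58 ± 0.11, adjusted p = 0.0332). For both, number 4 was the lowest culture of each organ, and the gap was largest at number 2.

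Il2ra, the alpha chain of the IL-2 receptor, was called with a smaller difference, -0.34 ± 0.07 (adjusted p = 0.0406). Its levels were 11.90, 12.50 and 11.81 against 12.41, 12.65 and 12.17. Ikzf4, a zinc finger factor of the Ikaros family, read 7.87, 8.48 and 7.57 against 8.78, 8.95 and 8.50 (difference -0.77 ± 0.17, adjusted p = 0.0488), with no overlap. Foxp3, the lineage factor of regulatory T cells, lay below the tested level, with a difference of 0.08 and signs that disagreed between numbers, and Ctla4 differed by -0.15 ± 0.07 (adjusted p = 0.311). Tnfrsf8, the receptor CD30, was outside these lists and was called lower by -0.85 ± 0.16 (adjusted p = 0.0279), chosen after its values were seen. The 4 calls of the regulatory list became 0 without liver 2, PLN 2 or PLN 4, 1 without liver 4 or MLN 2, 2 on the intensities as deposited and 1 with median centring. They were also 0 with a random replicate block, on the liver and PLN arrays alone with the block, and without the filter.

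Some genes induced by cytokine receptor signalling were also lower. Of 15 tested genes of the cytokine receptor feedback list, 4 were called lower (Cish, Pim1, Pim3 and Il2ra) and 0 higher. Differences below 0 were found in 12 of them, against 3462 of all 7436 tested genes, and the median was -0.30. Cish, a feedback inhibitor induced by STAT5, read 10.70, 12.19 and 10.51 in liver cultures and 11.93, 12.37 and 11.88 in PLN cultures (difference -0.93 ± 0.18, adjusted p = 0.0332). Liver 3 stood with the PLN arrays, while liver 2 and liver 4 lay more than a log2 unit below their partners. Pim1, a kinase induced by cytokines, read 11.42, 11.48 and 11.44 against 11.88, 11.73 and 11.71 (difference -0.33 ± 0.06, adjusted p = 0.0303), with every liver array below every PLN array. Pim3, a related kinase, differed by -0.97 ± 0.19 (adjusted p = 0.0313). A second probe set of Pim3 at a tested level gave -0.68 (unadjusted p = 0.000513). A dimmer probe set of Pim3, also at a tested level, gave 0.12 (unadjusted p = 0.525). The 4 calls became 0 without liver 2, PLN 2 or PLN 4, 1 without liver 4, and 2 under both other scalings or with all probe sets averaged. They were 0 with a random replicate block, on the liver and PLN arrays alone with the block, and without the filter.

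The largest difference of all 7436 genes was that of Tgm2, transglutaminase 2, an enzyme that cross-links proteins and is induced by retinoic acid. It read 7.74, 9.98 and 8.38 in liver cultures and 10.60, 11.38 and 10.91 in PLN cultures. Every liver array lay below every PLN array (difference -2.26 ± 0.27, 4.80-fold on this scale, adjusted p = 0.00416). All 4 other Tgm2 probe sets at a tested level also had negative differences, from -2.52 to -1.58. Left out in turn, liver 2, PLN 2 and PLN 4 raised its adjusted p to 0.0520, 0.0518 and 0.0676. Tgm2 averaged 11.54 in MLN and 10.24 in spleen cultures.

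The list of retinoic acid and TGF-beta response genes, to which Tgm2 belongs, was not lower as a whole. Of its 16 tested genes 9 had differences above 0, near the 53.4% of all tested genes, and its median was 0.05. Its other calls were Tgfb3, a TGF-beta ligand, and Hic1, a transcriptional repressor that retinoic acid induces in T cells. Tgfb3 read 4.56, 4.66 and 7.66 against 7.57, 6.70 and 8.25, so that liver 2 and liver 3 were near the bottom of the scale (difference -1.88 ± 0.35, adjusted p = 0.0290). Hic1 read 8.26, 8.28 and 8.68 against 9.08, 9.13 and 9.0, with no overlap (difference -0.66 ± 0.14, adjusted p = 0.0389). The 3 calls became 0 without liver 2, PLN 2 or PLN 4, 1 without PLN 3, and stayed 3 without liver 4. The gut-homing integrin chains Itga4 and Itgb7, whose expression is also tied to retinoic acid, differed by 0.04 ± 0.29 and -0.08 ± 0.13 (adjusted p = 0.974 and 0.844).

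Gcnt2 and Csgalnact1, enzymes that build glycans, were the 2 calls of their list. Gcnt2, which branches poly-lactosamine chains, read 6.06, 6.70 and 6.60 in liver cultures and 7.59, 7.82 and 8.02 in PLN cultures (difference -1.36 ± 0.21, adjusted p = 0.0173). Csgalnact1, which starts chondroitin sulphate chains, read 6.47, 7.04 and 6.33 against 7.61, 7.74 and 7.89 (difference -1.13 ± 0.21, adjusted p = 0.0290). Neither overlapped between groups, and both were dim, so the averaging of all probe sets or the stricter filter left 0 calls in this list of 12 tested genes, whose median was -0.16. Without liver 2, liver 4, PLN 2 or PLN 4 the 2 calls were also 0.

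Other lower genes of large difference had no common role. Eef1a2, a translation elongation factor, read 6.83, 7.14 and 6.89 against 8.03, 8.20 and 8.66 (difference -1.34 ± 0.19, adjusted p = 0.0150), with no overlap. Shroom3, an actin-binding protein, differed by -1.29 ± 0.27, Selenbp1, a selenium-binding protein, by -1.33 ± 0.21, Vldlr, a lipoprotein receptor, by -1.27 ± 0.23, and Mycn, a transcription factor of the MYC family, by -1.11 ± 0.21. H2-Q10, a class I gene of the MHC, read 8.41, 8.74 and 9.88 against 9.98, 9.48 and 11.04 (difference -1.16 ± 0.13, adjusted p = 0.00416). It belongs to a family of closely related genes that differ between the strains used, so which gene its probe set reports is uncertain. The cell-cycle inhibitor Cdkn1a (-0.47 ± 0.09), the purinergic channel P2rx4 (-0.51 ± 0.11), the chemokine receptor Cxcr4 (-0.79 ± 0.12), the stress-response gene Ier3 (-0.46 ± 0.10) and the AP-1 subunit Jun (-0.60 ± 0.13) were the remaining lower calls of the lists, beside Ccnd3, Batf3 and Lum below.

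**Figure D3:**
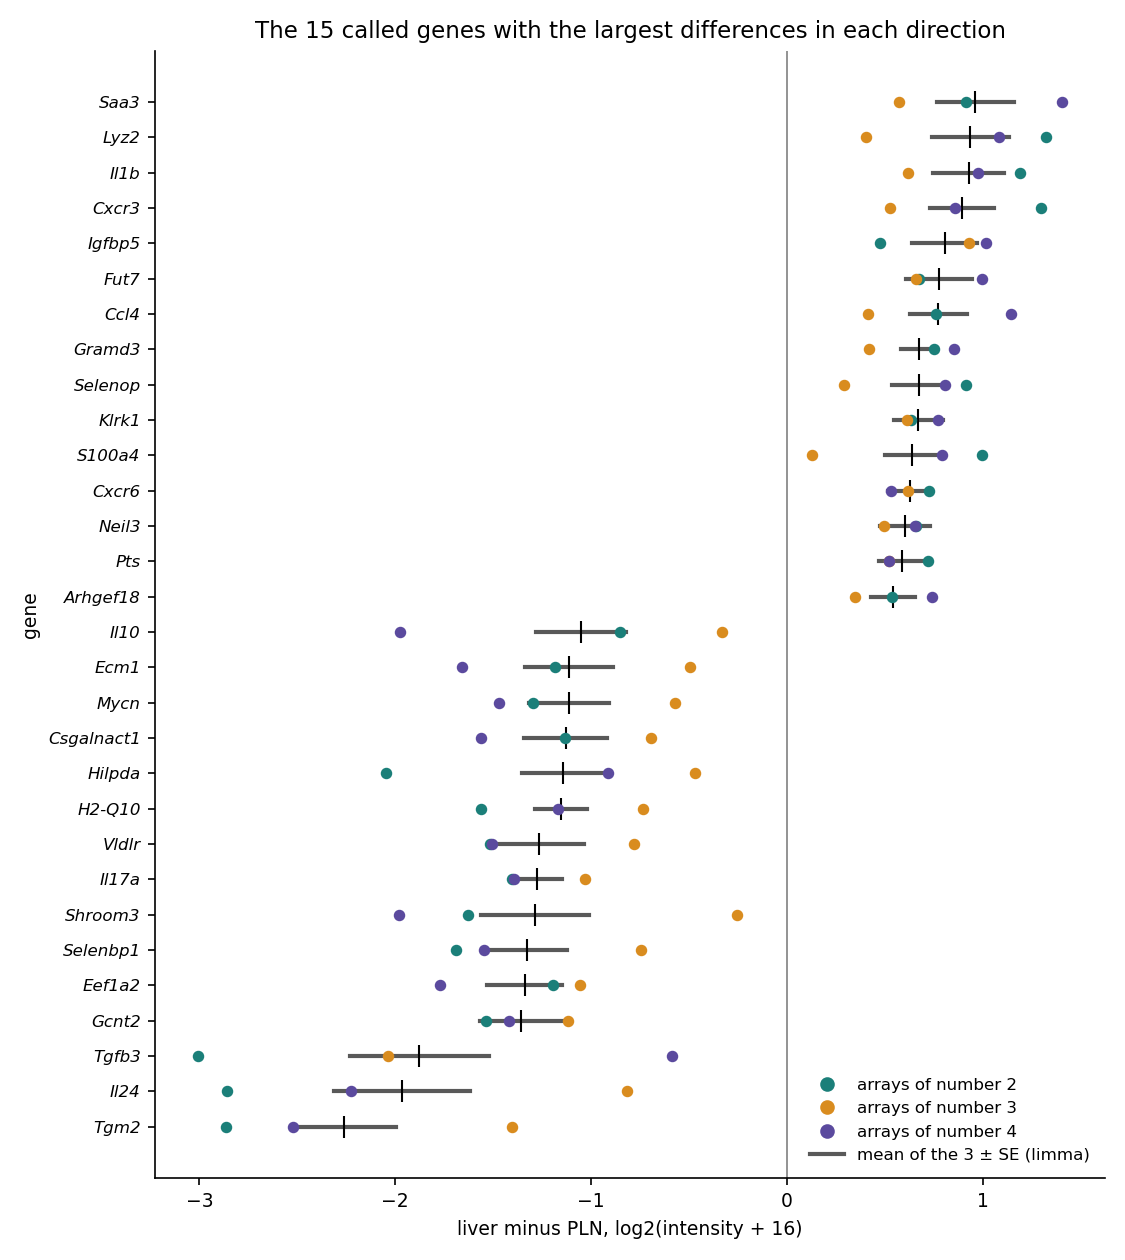
Liver minus PLN differences (x axis, log2(intensity + 16)) of the 15 called genes with the largest differences in each direction (y axis); points are the 3 numbers, ticks and bars the mean ± SE of the limma fit. Tgm2 at -2.26 and Saa3 at 0.96 are the ends of the range, and the number 3 point lies nearest 0 in these genes except Tgfb3, Igfbp5 and Cxcr6.

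On the other side, the chemokine receptors Cxcr3 and Cxcr6 and the chemokine Ccl4 were higher in liver cultures. Cxcr3, the receptor that guides type 1 T cells to inflamed tissue, read 9.82, 8.91 and 9.42 in liver cultures and 8.52, 8.38 and 8.57 in PLN cultures. The groups did not overlap, and the PLN arrays were close together (difference 0.89 ± 0.16, 1.86-fold, adjusted p = 0.0279). Cxcr6, a receptor of T cells that settle in liver sinusoids, read 10.96, 10.42 and 11.70 against 10.24, 9.80 and 11.17 (difference 0.62 ± 0.11, adjusted p = 0.0279), a gap of similar size at each number. Of 7 tested inflammatory chemokine receptors these 2 were called higher and Cxcr4 lower. All 3 calls were lost without liver 2, PLN 2 or PLN 4, and Cxcr6 alone was kept without liver 4.

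The tested genes of the chemokine list leaned to the liver side on average, though not at each number. All 8 tested genes of this list had mean differences above 0, but 4 were higher at all 3 numbers and 4 had mixed signs. The other 6 of the 14 measured genes lay below the tested level. The list's medians at numbers 2, 3 and 4 were 0.64, 0.16 and 1.02. Its median over the 3-number means was 0.69, and 1 gene was called. That was Ccl4, a chemokine of the CC family, which read 9.03, 9.63 and 10.24 in liver cultures and 8.27, 9.21 and 9.10 in PLN cultures (difference 0.77 ± 0.14, adjusted p = 0.0279). Ccl5, of the same family, just missed the threshold at 0.76 ± 0.17 (adjusted p = 0.0525), with gaps of 0.69, 0.68 and 0.91. Ccl3 differed by 0.81 ± 0.21 and Xcl1, a ligand for cross-presenting dendritic cells, by 0.98 ± 0.31 (adjusted p = 0.0837 and 0.150). The call of Ccl4 was lost without liver 2, liver 4, PLN 2 or PLN 4.

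Of 16 tested genes of the type 1 list, 2 were called higher (Ccl4 and Cxcr3) and 0 lower. Differences above 0 were found in 13 of them, against 53.4% of all tested genes, and the median was 0.25. The 2 calls were both from the traffic genes above. Tbx21, the lineage factor T-bet, read 9.62, 8.95 and 10.09 against 9.05, 8.98 and 9.01 (difference 0.54 ± 0.18, adjusted p = 0.16). Liver 3 was at the PLN level. Ifng, the main type 1 cytokine, differed by -0.21 ± 0.18 (adjusted p = 0.629), and Il18r1, an IL-18 receptor chain chosen after its values were seen, by 0.73 ± 0.22 (adjusted p = 0.128). The list had 0 calls without liver 2, liver 4, PLN 2 or PLN 4, 4 without MLN 4 and 5 without liver 3.

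A killer cell receptor was higher, while no gene of the cytotoxicity list was called. Klrk1, which encodes the activating receptor NKG2D, read 11.20, 10.59 and 10.90 against 10.57, 9.98 and 10.13, with every liver array above every PLN array (difference 0.67 ± 0.13, adjusted p = 0.0290). Klrd1, a partner of the NKG2 receptors, differed by 0.54 ± 0.15 (adjusted p = 0.0995). Of 14 tested cytotoxicity genes limma called 0 (3 higher and 1 lower at an unadjusted p under 0.05), and their median was 0.02. The granzyme Gzmf, at 0.78 ± 0.19, and the protease Ctsw, at 0.35 ± 0.09, were above 0 at each number and missed the threshold (adjusted p = 0.0631 and 0.0715). Granzyme B, Gzmb, was near the top of the scale in all 6 cultures, from 13.72 to 13.82 (difference 0.01 ± 0.05), and perforin, Prf1, differed by -0.17 ± 0.10 (adjusted p = 0.477). The Klrk1 call was lost without liver 2, liver 4, PLN 2 or PLN 4.

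Fut7, the fucosyltransferase that completes selectin ligands, was the one call among 11 tested genes of skin and selectin-ligand homing. It read 8.22, 8.25 and 8.41 in liver cultures and 7.55, 7.59 and 7.41 in PLN cultures. The arrays of each organ lay within 0.19 of each other and the groups were far apart (difference 0.77 ± 0.17, adjusted p = 0.0443). The SE of the fit pools the spread of all 11 arrays. Fut7 averaged 6.46 in MLN and 7.72 in spleen cultures. Selplg, the protein that carries the selectin ligand, differed by 0.15 ± 0.06 (adjusted p = 0.261), and the integrin chain Itgae by -0.14 ± 0.16 (adjusted p = 0.749). Fut7 was not called on the intensities as deposited, nor without liver 2, liver 4, PLN 2, PLN 3, PLN 4 or MLN 4.

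Sema4a, a semaphorin that co-stimulates T cells, was called higher: 10.50, 10.63 and 10.98 against 9.90, 10.17 and 10.49, an even gap with no overlap (difference 0.52 ± 0.08, adjusted p = 0.0201). A second probe set of Sema4a gave 0.42. S100a4, a calcium-binding protein of motile cells, differed by 0.64 ± 0.14 (adjusted p = 0.0434), with a gap of only 0.13 at number 3. The inhibitory receptor Pdcd1, PD-1, read 9.29, 9.05 and 9.27 against 8.46, 8.67 and 8.11 and missed the threshold (difference 0.79 ± 0.18, adjusted p = 0.0545). Lmna, the A-type lamin of the nuclear envelope, differed by 0.47 ± 0.14 (adjusted p = 0.121). Neither Sema4a nor S100a4 was called without liver 2, liver 4, PLN 2 or PLN 4, and S100a4 was also lost without MLN 2, MLN 3 or MLN 4 and with median centring.

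Genes of cell division leaned to the liver side by small amounts. Of 32 tested cell cycle genes, 30 had differences above 0 and 21 were higher at all 3 numbers. Over all tested genes these shares were 53.4% and 19.3%. The median of the list was 0.25, but only Cdc25b and Birc5 were called higher. Cdc25b, a phosphatase that starts mitosis, read 9.55, 9.34 and 10.40 against 8.91, 8.99 and 9.83 (difference 0.52 ± 0.10, adjusted p = 0.0279). Birc5, survivin, read 11.65, 11.65 and 11.85 against 11.18, 11.49 and 11.37, with no overlap (difference 0.37 ± 0.08, adjusted p = 0.0383). Ccnd3, the D-type cyclin of lymphocytes, went the other way: 11.46, 11.86 and 11.82 against 11.92, 12.13 and 12.21 (difference -0.38 ± 0.07, adjusted p = 0.0291). The DNA replication list had 22 of 23 tested genes above 0, a median of 0.13 and 0 calls by limma (9 higher and 0 lower at an unadjusted p under 0.05). The 2 higher cell cycle calls became 10 without liver 3, 6 without PLN 3, 1 without each of MLN 2, MLN 3 and MLN 4, 1 under both other scalings, and 0 without liver 2, liver 4, PLN 2 or PLN 4. Ccnd3 was called on the intensities as deposited and not with median centring.

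Of the 32 lists of gene function 20 held at least 1 call. The purinergic list of 8 tested genes had a median of -0.33 and 1 call, P2rx4. The TNF and TNF receptor list (18 tested) had a median of -0.07, and its 2 calls were Tnfrsf18 and Tnfrsf4. The immediate early list (14 tested) had a median of -0.05 and 2 lower calls, Jun and Ier3, neither of which was called on the intensities as deposited. The killer lectin list (6 tested) had the second highest median, 0.36.

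The other 12 lists held 0 calls by limma. Class I presentation (10 tested, median 0.07, 2 higher and 0 lower at an unadjusted p under 0.05), the interferon response (20 tested, 0.14, 5 and 1), the nuclear lamina (10 tested, 0.22, 4 and 0) and lymph node homing (14 tested, 0.13, 6 and 1) had medians above 0. Amino acid and ion carriers (10 tested, -0.18, 0 and 3), inhibitory receptors (7 tested, -0.11, 1 and 2) and heat shock genes (11 tested, -0.11, 0 and 3) had medians below 0. Genes of the respiratory chain (23 tested, 0.03, 3 and 0) and of cholesterol and fatty acid synthesis (16 tested, 0.03, 2 and 1) had medians close to that of all genes. The lymph node homing receptor Ccr7 differed by -0.21 ± 0.09 (adjusted p = 0.282).

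**Figure D4:**
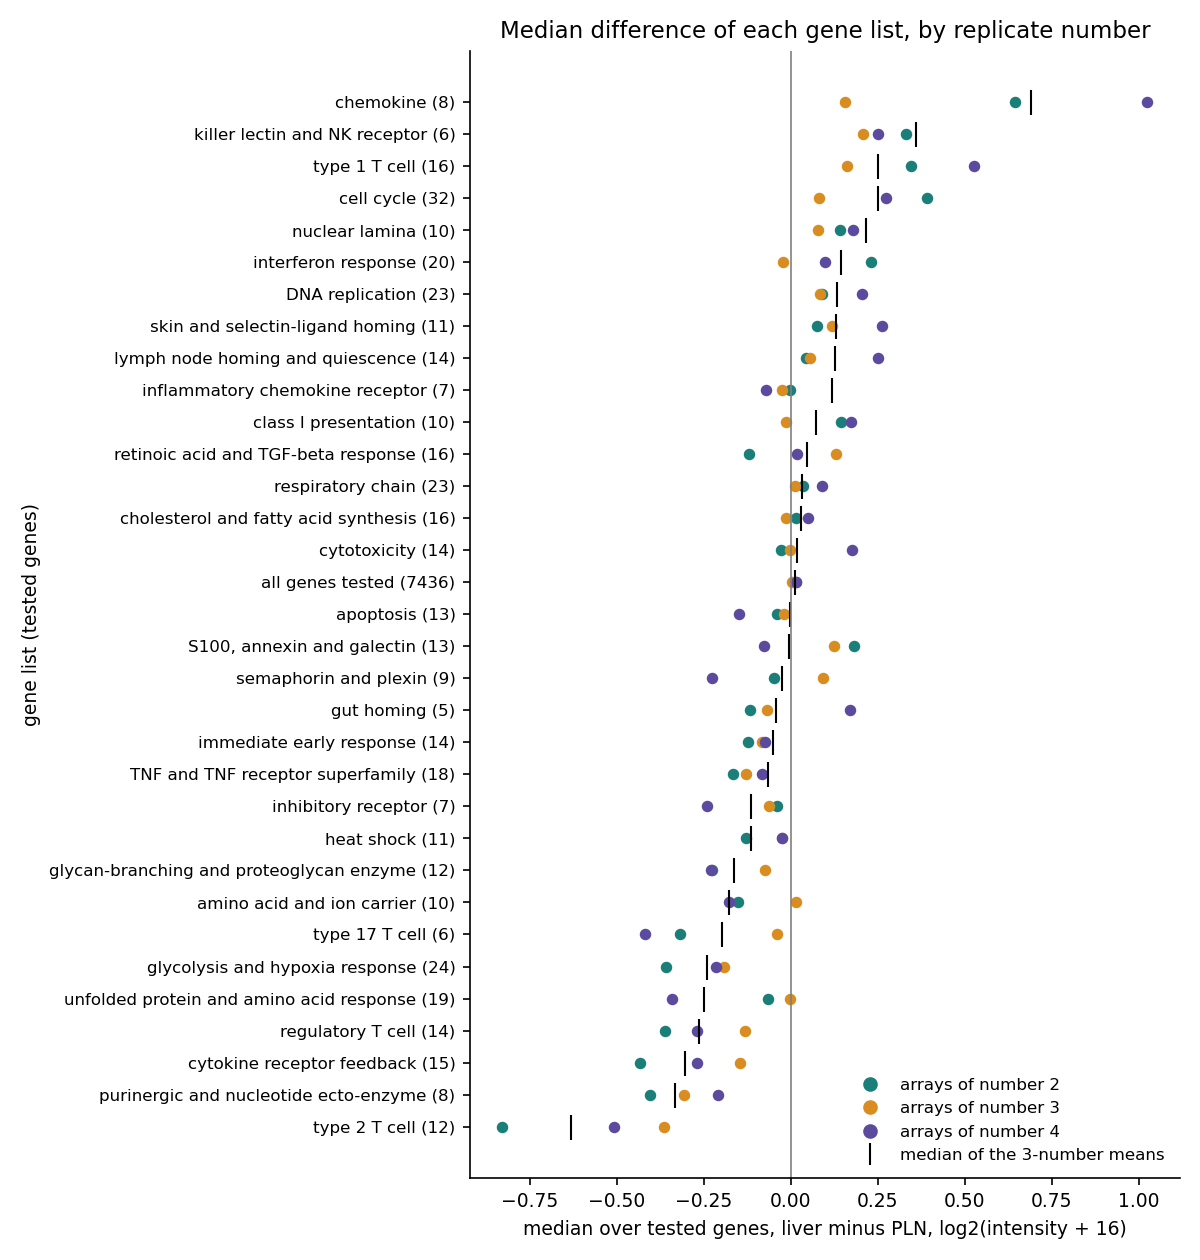
Median liver minus PLN difference (x axis, log2(intensity + 16)) over the tested genes of each list of gene function (y axis, number of tested genes in brackets), at numbers 2, 3 and 4 (points) and over the 3-number means (ticks). The type 2 list at -0.63 and the chemokine list at 0.69 lie at the ends, and all genes tested lie at 0.01.

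The 3 highest differences among the 30 genes called higher were of genes typical of myeloid cells. Saa3, an acute-phase serum amyloid, read 7.53, 7.57 and 8.08 in liver cultures and 6.62, 7.0 and 6.68 in PLN cultures (difference 0.96 ± 0.20, adjusted p = 0.0362). Lyz2, the lysozyme of macrophages and granulocytes, read 7.88, 7.84 and 7.63 against 6.55, 7.44 and 6.55 (difference 0.93 ± 0.20, adjusted p = 0.0406). Il1b, the inflammatory cytokine IL-1β, read 8.0, 8.42 and 8.37 against 6.81, 7.80 and 7.39 (difference 0.93 ± 0.18, adjusted p = 0.0332). None of the 3 overlapped between groups, and all were dim beside the T cell genes. The calls of Saa3 and Il1b were lost without liver 2, liver 4, PLN 2 or PLN 4, and that of Saa3 also without MLN 2 and on the intensities as deposited. Lyz2 was called in 3 of the 11 fits that left out an array, without liver 3, PLN 3 or spleen 4, and was not called on the intensities as deposited.

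Most markers of macrophages, monocytes and Kupffer cells were dim in both organs. Of 16 measured markers 11 lay below the tested level, among them the defining genes Adgre1, Clec4f, Vsig4, Marco and C1qa. Lyz2 was the one call among the 5 tested, and Cd14 was the next at 0.92 ± 0.27 (adjusted p = 0.121). The brightest was Ctss, a cathepsin that other antigen-presenting cells also express, with levels from 10.92 to 11.53 in liver and 10.95 to 11.31 in PLN cultures (difference 0.23 ± 0.10, adjusted p = 0.290). The summed intensity of the 16 markers, Ctss included, was 4017, 4027 and 3006 in liver cultures 2, 3 and 4. In the PLN cultures of the same numbers it was 2760, 3471 and 2989, lower at each number and by little at number 4. The 10 neutrophil markers, 9 of them below the tested level, summed to 422.9 to 542.9 and 325.8 to 443.8. The part of such cells in the differences of Saa3, Lyz2 and Il1b was not tested.

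T cell RNA was abundant in both organs. The 9 measured T cell markers summed to 24361 to 32559 in liver cultures and 24366 to 26291 in PLN cultures, and limma called 0 of them (4 higher and 0 lower at an unadjusted p under 0.05). Cd8a differed by 0.18 ± 0.08 and Cd3e by 0.31 ± 0.11 (adjusted p = 0.331 and 0.197). The 9 B cell and plasma cell markers summed to 10600.5 to 13092.8 in liver and 10673.4 to 13133.5 in PLN cultures, with 0 calls among the 6 tested. Dendritic cell markers remained measurable, with the defining genes Zbtb46 and Xcr1 below the tested level. The 17 markers summed to 9989, 15844 and 8188 in liver cultures 2, 3 and 4. In the PLN cultures of the same numbers the sums were 10186, 16365 and 10342, higher at each number. The MHC class II genes Cd74 and H2-Aa differed by 0.01 ± 0.11 and -0.06 ± 0.14. The 1 call was Batf3, a transcription factor of dendritic cells that activated T cells also express, at 9.54, 10.59 and 9.81 against 10.92, 10.88 and 10.90 (difference -0.92 ± 0.18, adjusted p = 0.0303).

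Most markers of liver tissue were dim in both organs. All 12 measured hepatocyte markers, albumin among them, lay below the tested level, and their summed intensity was 367 to 451 in liver and 454 to 505 in PLN cultures. The 5 bile duct markers summed to 285 to 323 and 289 to 506. Of 10 sinusoidal endothelial markers 7 lay below the tested level. Among the 3 tested, Fcgr2b was higher at each number but not called (0.42 ± 0.14, limma adjusted p = 0.168). Its other probe sets at a tested level gave 0.95 and 0.92. Kdr and Pecam1 differed by -0.31 and -0.03. Of the 10 markers of stellate and fibroblastic cells, Lum, a matrix proteoglycan, was called lower in liver cultures: 7.21, 8.66 and 7.80 against 8.19, 9.37 and 9.17 (difference -1.02 ± 0.13, adjusted p = 0.0093). Of that list 7 markers, Col1a1, Col3a1 and Dcn among them, lay below the tested level. The list's sum at numbers 2, 3 and 4 was 718, 982 and 825 against 943, 1221 and 1306. The part of such cells in the difference of Lum was not tested.

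Among the remaining higher genes of large difference, Igfbp5, a binding protein of insulin-like growth factors, read 7.56, 7.63 and 7.52 against 7.09, 6.70 and 6.51 (difference 0.80 ± 0.17, adjusted p = 0.0383). A dim probe set of Igfbp5, below the tested level, gave -0.79 with an unadjusted p of 0.00762, so the direction of this gene depends on the probe set. Gramd3 read 10.51, 9.83 and 11.16 against 9.75, 9.41 and 10.31 (difference 0.67 ± 0.09, adjusted p = 0.0120), the smallest adjusted p of the 30 higher genes. Selenop, the selenium transport protein, differed by 0.67 ± 0.14, the DNA glycosylase Neil3 by 0.60 ± 0.13, the tetrahydrobiopterin enzyme Pts by 0.59 ± 0.12 and Arhgef18 by 0.54 ± 0.11. Of the 111 called genes 36 had another probe set at a tested level, and of those 56 probe sets 54 had the same direction, 41 of them with an unadjusted p under 0.05.

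**Figure D5:**
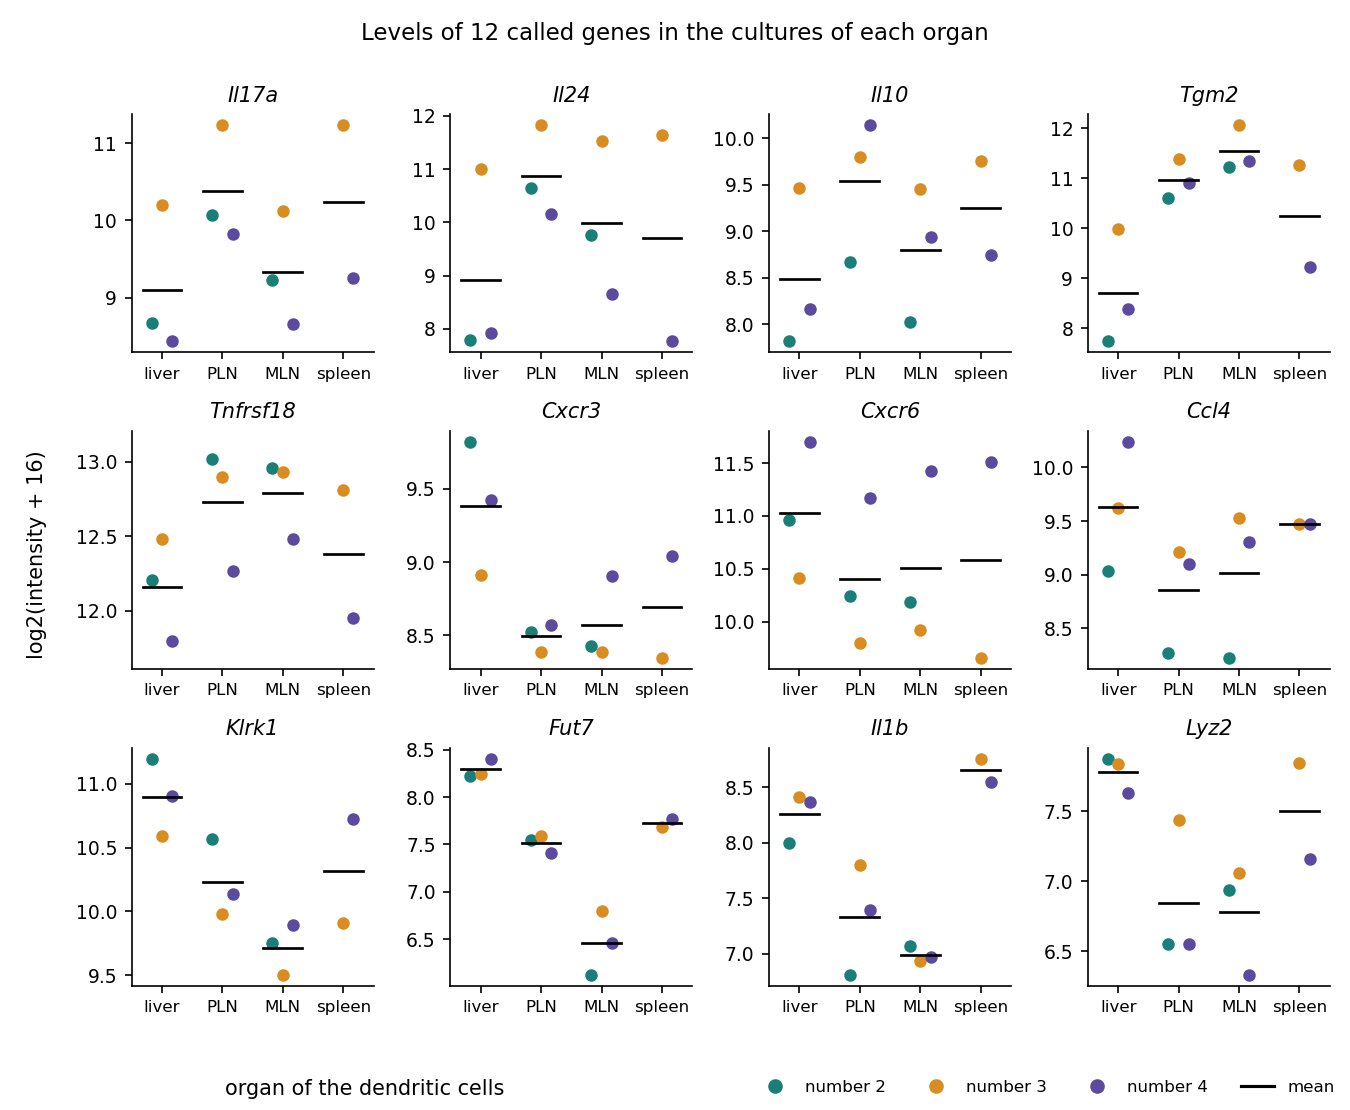
Levels (y axes, log2(intensity + 16)) of 12 called genes in cultures with dendritic cells of each organ (x axes); points are single arrays coloured by number, and lines are group means (n = 3, 3, 3 and 2). Il17a and Tgm2 are lower in liver than in PLN cultures at each number and Cxcr3 and Fut7 higher, while levels also move with the number, as in Il17a, where number 3 is the highest culture of each organ.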

How the data were processed

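The authors deposited 1 linear intensity per probe set and array, scaled so that the mean after trimming 2% at each end was 500.2 on each of the 11 arrays, as read from the values; the software that made them is not given in the sources used here. Of 22690 probe sets, 64 controls were left out, 20380 had 1 symbol in the platform annotation, 691 several and 1555 none; the last 2 kinds were not named. Symbols were updated to GRCm38.p6 for 20351. Intensities were computed as log2(intensity + 16) and quantile normalized, the probe set of highest mean stood for each gene, and the 7436 genes above a mean intensity of 104.7 were tested.

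limma 3.58.1 in R 4.3.3 fitted all 11 arrays with organ means and the replicate number as a block (5 residual degrees of freedom), a trend in the variance, and Benjamini-Hochberg adjustment over all tested genes at 0.05. The rule of the comparison calls for differences within a number. The numbers pair the arrays: after organ means were subtracted, liver and PLN arrays of the same number correlated at 0.41, 0.61 and 0.61 across tested genes. Those of different numbers correlated at -0.50 to -0.10. Deviations from an organ mean sum to 0, so positive values within numbers bring negative ones between numbers. The negative values are therefore no separate support for the pairing. Identical arrays were looked for and not found. Tested on data made with known differences, the fit called 72% of genes that differed by 0.5 and 98% of those that differed by 1. Of its 193 calls 8 were false. Those data were drawn from the fitted model itself, with errors independent between genes and arrays. The shares therefore hold only where that model is right, and they do not measure how reliable the calls on the real arrays are. The number of arrays limits the precision.

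The comparison, the 46 gene lists (32 of function, 14 of cell type markers) and the tests were chosen with earlier results of these data known. Named genes are the 15 with the largest differences in each direction among the calls, up to 4 of smallest p per list, and a set of homing and cytokine genes; the text marks others given with values as chosen after their values were seen. Promoters are the 250 bases before each RefSeq start. Alternatives changed the block, arrays, scaling, pseudocount (1 or 64), filter, probe sets and variance trend.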

Additional observations from a re-analysis of the deposited data

How the results depend on the processing

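The 111 genes called with the replicate block (30 higher and 81 lower) kept their direction under every alternative in which they were tested, but their calls did not hold under most. Their direction could not change where only the block, the variance trend or the MLN and spleen arrays were changed. Without the replicate block limma called 0 genes (0 higher, 0 lower). At an unadjusted p under 0.05 it passed 275, or 3.7% of the genes tested. With a random replicate block it called 4 (0 higher, 4 lower), and on the liver and PLN arrays alone with the block 6 (2 and 4). Without a filter on dim genes it called 5 (1 and 4). Without the variance trend it called 0 (0 and 0), with 1099 at an unadjusted p under 0.05 and a smallest adjusted p of 0.0641. With all probe sets of a gene averaged it called 74 (23 and 51), on the intensities as deposited 79 (23 and 56) and with median centring 79 (24 and 55). Pseudocounts of 1 and 64 and the stricter filter called 110, 112 and 104. With single arrays left out the count ran from 1 (without PLN 4) to 237 (without liver 3), from 0 to 91 higher and from 1 to 146 lower; with all arrays of a number left out it was 0 without number 2 (656 at an unadjusted p under 0.05), 222 without number 3 (74 and 148) and 0 without number 4 (817). Over those omissions, genes near 0 changed sign: H2-Aa from -0.23 to 0.15, Cd74 from -0.14 to 0.15, Gata3 from -0.37 to 0.14, Ifng from -0.40 to 0.12, Gzmb from -0.034 to 0.047, Itga4 from -0.40 to 0.42, Itgb7 from -0.18 to 0.056, Prf1 from -0.26 to 0.0024 and Ldha from -0.054 to 0.0017; H2-Aa was 0.0089 with all probe sets averaged. Alternatives that changed only the block, the variance trend or the MLN and spleen arrays leave every difference as it was, so their list medians could not move. With those included, 974 of 1024 list medians under the alternatives moved by less than the SD between numbers. The cause of these shifts was not tested. With 3 arrays an organ, 5 residual degrees of freedom and dim genes close to the background, smaller differences cannot be told from the spread.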

Other observations

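The heat shock genes Hspa1a and Hspa1b were high in cultures PLN 2 and MLN 2. The chaperone Hspa1a read 10.23 in PLN 2, against 6.57 and 6.76 in PLN 3 and PLN 4 and 5.96 to 6.85 in the 3 liver cultures. MLN 2 was also high, at 9.92. The liver minus PLN difference of -1.58 ± 0.44 did not pass the test (adjusted p = 0.103). Hspa1b behaved alike, at 10.85 in PLN 2 10.65 in MLN 2, and 7.18 to 8.39 in the other PLN and liver cultures (difference -1.42 ± 0.42, adjusted p = 0.121). Ddit3, a transcription factor of the unfolded protein response, read 10.06, 8.30 and 9.21 in PLN cultures and 8.87, 8.20 and 8.30 in liver cultures (difference -0.73 ± 0.17, adjusted p = 0.0604). Of 19 tested genes of the unfolded protein and amino acid response, 16 had differences below 0, against 3462 of all 7436 tested genes. The median was -0.25, with 0 calls by limma (0 higher and 6 lower at an unadjusted p under 0.05).

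Probe sets that could not be named were fitted apart from the genes. Of 1035 such probe sets at a tested level 8 were called, 7 of them lower in liver cultures, in a fit of 12832 probe sets with 101 calls.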
